A study of Mus musculus with 2 samples.

Results

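Solute carriers are membrane proteins that move sugars, amino acids, metals, nucleotides and other small molecules across the plasma membrane or the membranes of organelles. Their transcripts were measured here by 47 probes for 43 genes, of 5072 probes for 4413 genes in the deposited table of ratios. A probe was taken when its gene name began with Slc followed by a digit and when it had a value in that table, with Slc4a1 left out, and each gene was put in a substrate group by its carrier family number. The array held 518 solute carrier probes for 320 genes, so 9.07% of them had a deposited value, against 12.3% of all gene probes on the array. The 4 genes with 2 probes each were Slc25a4, Slc35b2, Slc38a1 and Slc38a2.

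The tissue was the pancreatic lymph node of female NOD mice, 16 weeks old, a strain in which T cells destroy the insulin-producing islets. Each of 2 arrays compared 1 hyperglycemic mouse with blood glucose above 500 mg/dl, labelled with Cy5, with the same Cy3-labelled pool of 2 euglycemic mice below 200 mg/dl. Every value below is a log2 ratio of the hyperglycemic mouse over the pool, so 1 means a doubled signal in the hyperglycemic mouse, and means are given ± SD over both mice (n = 2). The pool is 1 control sample, so nothing is known of the spread between euglycemic mice, and a dye effect on a probe cannot be told apart from a difference between the groups because no dyes were swapped. In a whole lymph node, fewer cells of a type and less RNA per cell cannot be told apart.

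Lymphocytes that become activated take up more glucose and amino acids. Facilitative carriers of the Slc2 family bring in glucose, sodium-coupled and exchange carriers of the Slc1, Slc6, Slc7 and Slc38 families bring in amino acids, and the Slc39 family brings zinc into the cytosol. Carriers of the Slc25 family sit mostly in the inner mitochondrial membrane and exchange nucleotides, phosphate, cofactors and intermediates of metabolism with the cytosol. Carriers of the Slc35 family load the endoplasmic reticulum and the Golgi with activated sugars and sulfate for glycosylation and sulfation.

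The Cy5 channel was dim, with median spot signals of 37.7 and 38.2 over a background of 35 on the 2 arrays, and 14.5% and 16.4% of gene spots well above background. Genes that mark the cell types of the tissue also moved, and their part in the carrier results was not tested. All 7 T cell marker probes fell (7 of 12 listed genes measured, mean log2 ratios from -1.86 for Cd3g to -1.09 for Cd5), and their summed signal was 27888 and 43311 in the pool against 12137 and 17141 in the hyperglycemic mice. All 7 red cell probes rose (1.03 to 1.75, hemoglobin genes and Alas2), with sums of 104170 and 178391 in the pool against 236687 and 421916. Of 19 exocrine pancreas probes 11 rose (Try5 1.51, Ctrb1 1.11) and 3 fell (Amy2a5 -2.15). Their summed signal was the largest of the marker lists, 1.86e+06 and 2.70e+06 in the pool against 2.33e+06 and 4.14e+06. Pancreatic transcripts were thus abundant in this tissue, and their part in the carrier ratios was not tested. Of 9 macrophage probes 3 rose and 1 fell, and of 5 B cell probes 1 rose (Pax5 1.17) and 3 fell (1 Ms4a1 probe -1.12). Of 5 endothelial probes 3 rose (Kdr 1.62). Of 4 stromal probes 2 rose (Lum 1.20, Dcn 1.00) and 1 fell (Col3a1 -0.76), and of 6 adipocyte probes 2 fell (Cidec -1.91, Cfd -1.63). None of the 7 listed islet genes was among the probes used here.

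Of the 47 solute carrier probes, 11 rose, 6 fell and 30 did not pass the test at an adjusted p under 0.05 (limma, two-sided). That is 23.4% higher and 12.8% lower, against 25.1% of all gene probes higher and 18.4% lower, so the shares of changed carriers were near those of all genes or below them. The 25.1% and 18.4% of all gene probes are the shares to set beside each group and marker count here. The median ratio of the carrier probes was 0.28 against 0.06 over all gene probes. Above 0 were 33 of 47 carrier probes and 2717 of all 5072 gene probes. Of 518 carrier probes, 82 were well above background in Cy3 on both arrays, 52 were so in Cy5, and 47 had a deposited value. Carriers dim in Cy5 can thus be missing from these counts. In mouse 1 the carrier median was 0.20 and in mouse 2 it was 0.27. Among the probes beyond a 2-fold mean difference were Slc4a7, Slc43a3, Slc35b3, Slc25a46 and Slc37a4 on the high side and Slc38a2 on the low side. None of the 17 calls held in 3 alternatives: limma on scanner signals after normexp with offset 50 or 10, and on processed signals with dimmer probes added. At an unadjusted p under 0.05 in these (limma) were 14, 13 and 13 of 47 carriers, against 1711, 1637 and 3396 of 8814 probes. The third called 0 of all 8814 probes, so the loss of calls there is not particular to carriers. All 11 higher probes kept their sign under each alternative processing but 1: in scanner signals corrected by normexp and centred on the median without loess they read below 0, as did nearly all probes of the array (8617 of 8814 probes called lower, median -2.01).

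**Figure D1:**
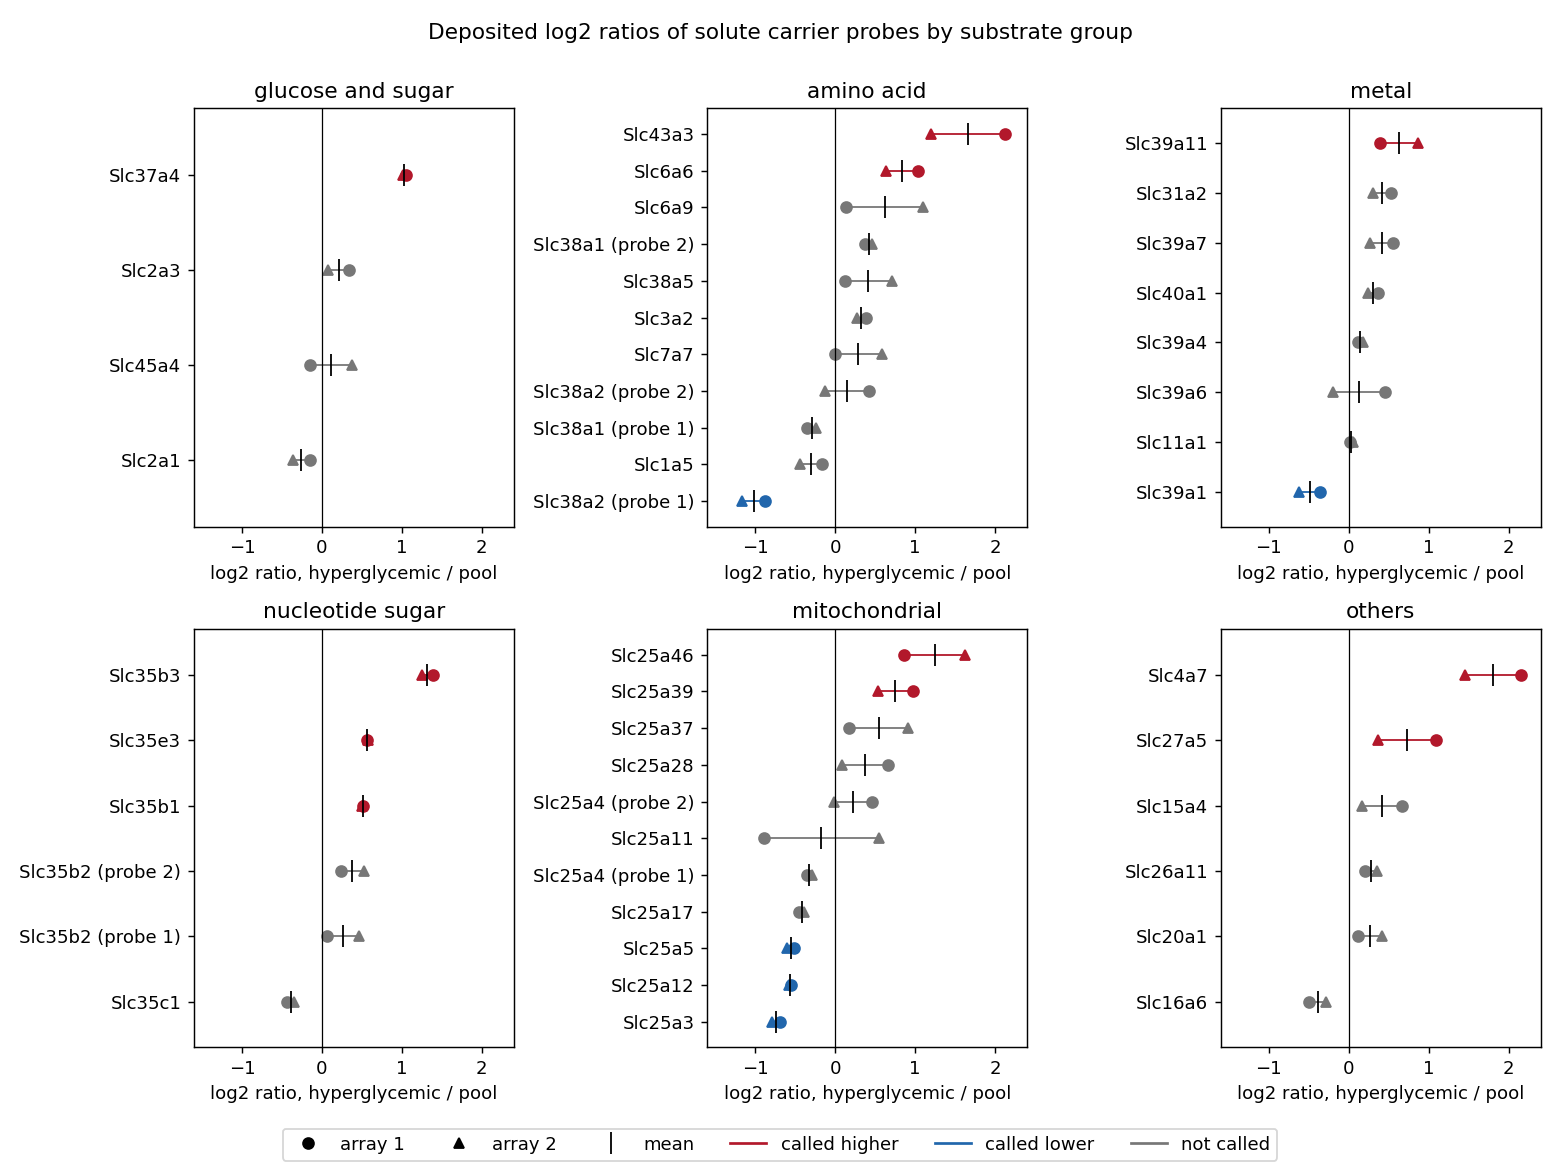
Deposited log2 ratios (horizontal axes, hyperglycemic mouse over pool) of 46 solute carrier probes by substrate group; the circle is mouse 1 (array 1), the triangle mouse 2 (array 2) and the bar their mean, red for called higher, blue for called lower and grey for not called. Slc4a7 lies farthest right with 2.15 and 1.46, 1 Slc38a2 probe lies farthest left with -0.88 and -1.16, and the 3 mitochondrial probes at the foot of their panel lie below 0 in both mice.

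The bicarbonate carrier Slc4a7 had the highest ratio of all carriers. It brings sodium and bicarbonate into the cell and counters acid made by metabolism. Its probe (mm8, chr14:13575487-13579615) read 498 and 891 in the pool and 2211 and 2453 in the 2 hyperglycemic mice, giving ratios of 2.15 and 1.46. Both mice were thus above the pool, by 3.50-fold on average (1.81 ± 0.49, adjusted p = 0.0011). Among the amino acid carriers Slc38a2, a sodium-coupled carrier of neutral amino acids that cells induce when amino acids run short, had the lowest ratio. The 250 bases upstream of the starts of Slc4a7 and Slc38a2 are shown because these are the highest and the lowest of the carriers beyond 2-fold that have a single entry in the promoter table (RefSeq, GRCm38.p6). The Slc4a7 stretch is chr14:14718534-14718783 on the plus strand and the Slc38a2 stretch is chr15:96699729-96699978 on the minus strand. Capitals mark the match to a CCAAT box (read on the other strand) in the first and to an Sp1 box GGGCGG (read on the other strand) in the second. The Slc38a2 stretch also holds 1 match to the endoplasmic reticulum stress half-site CCACG, left in lower case.
Slc4a7: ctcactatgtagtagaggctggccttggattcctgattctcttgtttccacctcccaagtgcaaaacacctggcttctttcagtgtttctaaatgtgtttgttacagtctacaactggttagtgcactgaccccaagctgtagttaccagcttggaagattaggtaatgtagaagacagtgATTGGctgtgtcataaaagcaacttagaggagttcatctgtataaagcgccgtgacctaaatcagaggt
Slc38a2: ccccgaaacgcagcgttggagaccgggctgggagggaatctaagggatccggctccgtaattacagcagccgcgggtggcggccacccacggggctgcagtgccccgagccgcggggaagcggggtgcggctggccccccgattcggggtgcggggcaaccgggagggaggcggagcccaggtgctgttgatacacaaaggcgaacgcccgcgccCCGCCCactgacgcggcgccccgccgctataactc
Of the 43 genes 28 had an entry in that table, and 6 motifs were searched on both strands of these 250 bases. The Sp1 box GGGCGG was found for 20 of the 28 genes (71.4%), against 65.6% of 3287 measured genes with an entry and 32.7% of all 32851 promoters. The CCAAT box was found for 9 (32.1%, against 41.9% and 33.9%), the endoplasmic reticulum stress half-site CCACG for 13 (46.4%, against 48.1% and 28.3%) and the metal response core TGCGCNC or TGCACNC for 9 (32.1%, against 34.4% and 21.4%). The E-box CACGTG was found for 3 genes (10.71%, against 10.8% and 6.02%) and the amino acid response element TGATGNAA for 1 (3.57%, against 2.56% and 3.45%). The carriers thus held these motifs at shares near those of the other measured genes, and a match is a run of letters and not a bound site.

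Of the 4 sugar carrier probes 1 rose (25%, against 25.1% of all gene probes) and 3 did not pass the test, with a median of 0.16. Slc2a1, the widespread facilitative glucose carrier GLUT1, read -0.15 in mouse 1 and -0.36 in mouse 2 (mean -0.26, adjusted p = 0.225), with a 95% interval of -0.63 to 0.11. Slc2a3, the high-affinity carrier GLUT3, read 0.34 and 0.08 (mean 0.21, adjusted p = 0.320), and its sign turned after loess on intensity (-0.32) and in the scanner-signal fits with normexp. Neither carrier differed from the pool beyond the error of the fit. At 2 mice the interval for Slc2a1 still allows a fall of 0.63 from this pool, and it holds no error of the pool itself. Slc45a4, of a family of proton-coupled sugar carriers, read -0.14 and 0.38, on either side of 0. The probe that rose was Slc37a4, which carries glucose-6-phosphate into the endoplasmic reticulum, where glucose-6-phosphatase acts on it. Its probe (mm8, chr9:44153899-44153957) read 499.9 and 978 in the pool and 1035 and 1969 in the hyperglycemic mice. The ratios of 1.05 and 1.01 were alike in both mice (1.03 ± 0.03, adjusted p = 0.0026, 2.04-fold).

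Of the 34 probes for 24 sugar carrier genes on the array, 4 were well above background in Cy5 on both arrays, and these were the 4 above. The intestinal and renal sodium-glucose carriers Slc5a1 and Slc5a2 were not well above background in either channel on either array. The islet and liver carrier Slc2a2 and the insulin-responsive carrier Slc2a4 passed that mark on 1 array in the pool and on neither in the hyperglycemic mice. Gene spots that passed it made up 21.7% and 63.0% in Cy3 on arrays 1 and 2, though both carried the same pool. In Cy5 they made up 14.5% and 16.4%. A pass on 1 array in the pool alone is therefore no measured loss in the hyperglycemic mice. Of 7 measured probes for genes of glucose uptake and early use, 2 rose, 2 fell and 3 did not pass the test. Txnip, whose protein binds GLUT1 and whose transcript is known to follow glucose, read 1.93 and 2.38 (2.16 ± 0.32, adjusted p = 0.00054, 4.46-fold). It stood above the pool in both mice, with a higher mean than any solute carrier. Hk1, the first enzyme of glycolysis, fell by 0.52 on the log2 scale (adjusted p = 0.0405).

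Amino acid carriers were mixed, with 2 of 11 probes higher, 1 lower and 8 not called, and a median of 0.33. That is 18.2% higher and 9.09% lower, against 25.1% and 18.4% of all gene probes. Slc43a3 was the highest. It belongs by family number to the large neutral amino acid carriers, but is known as a carrier of purine nucleobases. Its probe (mm8, chr2:84758669-84758728) read 380.2 and 492 in the pool and 1655 and 1131 in the hyperglycemic mice. The ratios were 2.12 and 1.20 (1.66 ± 0.65, adjusted p = 0.0021, 3.16-fold), well above the pool in both mice but farther in mouse 1. Slc6a6, the taurine carrier, rose by 0.84 ± 0.29 on the log2 scale (adjusted p = 0.0077). The glycine carrier Slc6a9 read 0.14 and 1.10, so its mean of 0.62 came mostly from mouse 2 and did not pass the test (adjusted p = 0.0678).

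The 2 probes of Slc38a2 disagreed. The probe at mm8 chr15:96516094-96516153 read 2590.45 and 3857 in the pool and 1409 and 1723 in the hyperglycemic mice. Its ratios of -0.88 and -1.16 lay below 0 in both mice (-1.02 ± 0.20, adjusted p = 0.0032, 2.03-fold lower). The probe at chr15:96517739-96517798 read 0.43 and -0.13, with a mean of 0.15 that did not pass the test (adjusted p = 0.545) and turned in sign in the scanner-signal fit with normexp. The call of Slc38a2 therefore rests on 1 of its 2 probes in the table. Of 2 further Slc38a2 probes on the array, 1 was well above background in the pool on both arrays and in neither hyperglycemic mouse (processed ratios -1.04 and -1.68). A probe that passes only in the pool leans to a negative ratio, so this is no measured level and adds no support to the call. The related carrier Slc38a1 also gave means of opposite sign from its 2 probes, 0.42 and -0.29, neither past the test, and Slc38a5 read 0.12 and 0.71.

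The other amino acid carriers in the table did not pass the test. Slc3a2, the heavy chain CD98 that brings several light chains to the cell surface, had a mean of 0.33 (adjusted p = 0.125), and Slc7a7, one of those light chains and an exchanger of cationic and neutral amino acids, a mean of 0.29 (adjusted p = 0.247). Slc1a5, which carries glutamine and other neutral amino acids, had a mean of -0.31 (adjusted p = 0.160). Of 10 probes for genes of amino acid sensing and for targets of the stress factor ATF4, 2 rose, 1 fell and 7 did not pass the test. The 2 that rose were Sesn2, a leucine sensor (0.73), and Lamtor3, a subunit of the lysosomal Ragulator complex (0.63), and the 1 that fell was another Ragulator subunit, Lamtor2 (-0.58). The 7 T cell marker probes were lower in both mice, as was the called Slc38a2 probe, and the part of the T cells in its value was not tested.

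Metal carriers made up 8 probes for 8 genes, of which 1 rose, 1 fell and 6 did not pass the test, with a median of 0.22. Each call is 12.5% of the group, against 25.1% higher and 18.4% lower of all gene probes. Both called probes belong to the zinc importers of the Slc39 family. Slc39a11, a zinc importer found on the nucleus and the Golgi, read 0.39 and 0.87 (0.63 ± 0.34, adjusted p = 0.0252), higher in both mice. Slc39a1, a zinc importer of the plasma membrane, read -0.36 and -0.62 (-0.49 ± 0.18, adjusted p = 0.0421), lower in both. The remaining zinc importers lay near 0 or did not pass the test. Slc39a7, which releases zinc from the endoplasmic reticulum, read 0.56 and 0.26 (mean 0.41, adjusted p = 0.0763). Slc39a4, the zinc importer of the gut, read 0.11 and 0.18 (mean 0.15), and its sign turned in the scanner-signal fit with normexp. Slc39a6, a zinc importer of the plasma membrane, read 0.46 and -0.19 (mean 0.13, and -0.25 after loess on intensity).

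Of the iron and copper carriers none passed the test. Slc40a1 or ferroportin, the iron exporter of macrophages, read 0.36 and 0.24 (mean 0.30, adjusted p = 0.151). Slc11a1, which pumps metals out of the phagosome of macrophages, read 0.02 and 0.05 (mean 0.03, adjusted p = 0.880), with a 95% interval of -0.32 to 0.39, and its sign turned after median centring. Slc31a2, a copper carrier of endosomes, read 0.52 and 0.30 (mean 0.41, adjusted p = 0.0706) and -0.03 after loess on intensity. The 2 macrophage carriers of iron and metals thus stayed within the error of the fit while the macrophage markers were split, 3 of 9 probes higher and 1 lower. Over all gene probes 25.1% rose and 18.4% fell. Among 11 probes for genes that store and handle iron, zinc and copper, 5 rose (45.5%) and 1 fell (9.09%). The zinc-binding metallothioneins were the highest of them: Mt2 read 1.46 and 1.72 (1.59 ± 0.19, adjusted p = 0.00088), and the 2 probes of Mt1 had means of 1.42 and 0.85. The ferritin heavy chain Fth1 rose by 0.64 and the heme-degrading enzyme Hmox1 by 0.81 on the log2 scale, whereas ceruloplasmin (Cp), the ferroxidase that works with ferroportin, had a mean of -0.07 and did not pass the test.

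None of the 47 probes was for a nucleoside carrier. The array held 9 probes for 6 nucleoside carrier genes of the Slc28 and Slc29 families, and none was well above background in Cy5 on either array. Slc28a2, a concentrative carrier of purine nucleosides, and Slc29a1, the equilibrative carrier ENT1, were well above background in the pool on both arrays. Their level in the hyperglycemic mice was not well above background, so no fold is given, and Cy5 was the dimmer channel for most of the array. Of 6 probes for enzymes of nucleoside salvage, 1 rose and 5 did not pass the test. The 1 that rose was a probe of the uridine-cytidine kinase Uck2 (0.67, adjusted p = 0.0115), and the other probe of that gene had a mean of -0.26.

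Mitochondrial carriers were the group with the most probes and the most falls. Of 12 probes for 11 genes of the Slc25 family 2 rose, 4 fell and 6 did not pass the test, and the median was -0.25. That is 16.7% higher and 33.3% lower, against 25.1% and 18.4% of all gene probes, and the group as a whole was not tested. Of those that fell, 3 serve respiration. Slc25a3, the phosphate carrier that feeds ATP synthase, had a mean of -0.74 ± 0.07 (adjusted p = 0.0083). Slc25a5, the ADP/ATP exchanger ANT2, had a mean of -0.56 ± 0.06 (adjusted p = 0.0233), and Slc25a12, the aspartate-glutamate carrier of the malate-aspartate shuttle, a mean of -0.57 ± 0.01 (adjusted p = 0.0220). All 3 probes lay below 0 in both mice, with an SD of at most 0.07. The related exchanger Slc25a4 (ANT1) had probe means of 0.22 and -0.32, neither past the test. Slc25a11, the oxoglutarate-malate carrier of the same shuttle as Slc25a12, read -0.90 and 0.55 and had the widest spread of all carriers (SD 1.02). Slc25a17, a family member of the peroxisome, had a mean of -0.42 (adjusted p = 0.0606).

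The 2 Slc25 probes that rose were Slc25a46 and Slc25a39. Slc25a46, an outer membrane protein of mitochondrial shape with no known cargo, read 1232 and 2020.3 in the pool and 2245 and 6215 in the hyperglycemic mice. The ratios were 0.87 and 1.62 (1.24 ± 0.53, adjusted p = 0.0038, 2.37-fold), above the pool in both mice and higher in mouse 2. Slc25a39, which imports glutathione, rose by 0.75 ± 0.31 on the log2 scale (adjusted p = 0.0123). The iron importers of mitochondria, Slc25a37 and Slc25a28 (the mitoferrins), had means of 0.54 (adjusted p = 0.0665) and 0.37 (adjusted p = 0.145) and did not pass the test. Slc25a37 and Slc25a39 are abundant in red cell precursors, and all 7 red cell probes rose in the same arrays; the part of the red cell share in these values was not tested. Of 11 probes for mitochondrial pores and import proteins 1 rose, 1 fell and 9 did not pass the test.

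Of the 6 probes for 5 Slc35 carriers of the endoplasmic reticulum and Golgi 3 rose, none fell and 3 did not pass the test, with a median of 0.45. That is 50% higher and 0% lower, against 25.1% and 18.4% of all gene probes, in a group of only 6 probes that was not tested as a whole. Slc35b3, which carries the sulfate donor PAPS into the Golgi, was the highest. Its probe (mm8, chr13:38939924-38939983) read 513 and 862 in the pool and 1348 and 2048 in the hyperglycemic mice. The ratios of 1.39 and 1.25 were alike in both mice (1.32 ± 0.10, adjusted p = 0.0013, 2.50-fold). The second PAPS carrier, Slc35b2, had probe means of 0.38 and 0.27, both above 0 in each mouse and neither past the test (adjusted p = 0.0929 and 0.237).

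Slc35b1, which brings ATP into the endoplasmic reticulum, had a mean of 0.51 ± 0.01 (adjusted p = 0.0313), and the carrier of unassigned cargo Slc35e3 a mean of 0.57 ± 0.01 (adjusted p = 0.0214). Both rose by nearly the same amount in the 2 mice. The GDP-fucose carrier Slc35c1, which supplies the fucose of selectin ligands, read -0.43 and -0.35 and was the 1 probe of the group below 0 (mean -0.39, adjusted p = 0.0742).

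The remaining 5 probes belonged to other families. Slc27a5, an enzyme of the liver that joins bile acids and very long chain fatty acids to coenzyme A and not a carrier in the strict sense, read 1.09 and 0.36 (0.73 ± 0.52, adjusted p = 0.0250). Its signal was among the dimmest 10% of probes, and after loess on intensity its mean was 0.12 and no longer passed the test. The liver genes Fabp1 and Alb1 fell in the same arrays, with means of -3.34 and -2.07. Slc16a6, a monocarboxylate carrier, read -0.50 and -0.28 (mean -0.39, adjusted p = 0.0832). Slc15a4, which moves histidine and peptides out of the lysosome of immune cells, read 0.67 and 0.17 (mean 0.42, adjusted p = 0.0965). The phosphate carrier Slc20a1 read 0.11 and 0.41, and the sulfate carrier Slc26a11 read 0.20 and 0.35. These 4 did not pass the test.

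Genes that act beside the lactate carriers were measured by 4 probes, of which 1 rose, 2 fell and 1 did not pass the test. Embigin (Emb), a chaperone of monocarboxylate carriers, had a mean of -0.28 and did not pass the test. The lactate dehydrogenase subunits moved apart: Ldhb read 1.33 and 1.14 (1.23 ± 0.14, adjusted p = 0.0016), and both probes of Ldha fell, with means of -0.79 and -0.74.

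**Figure D2:**
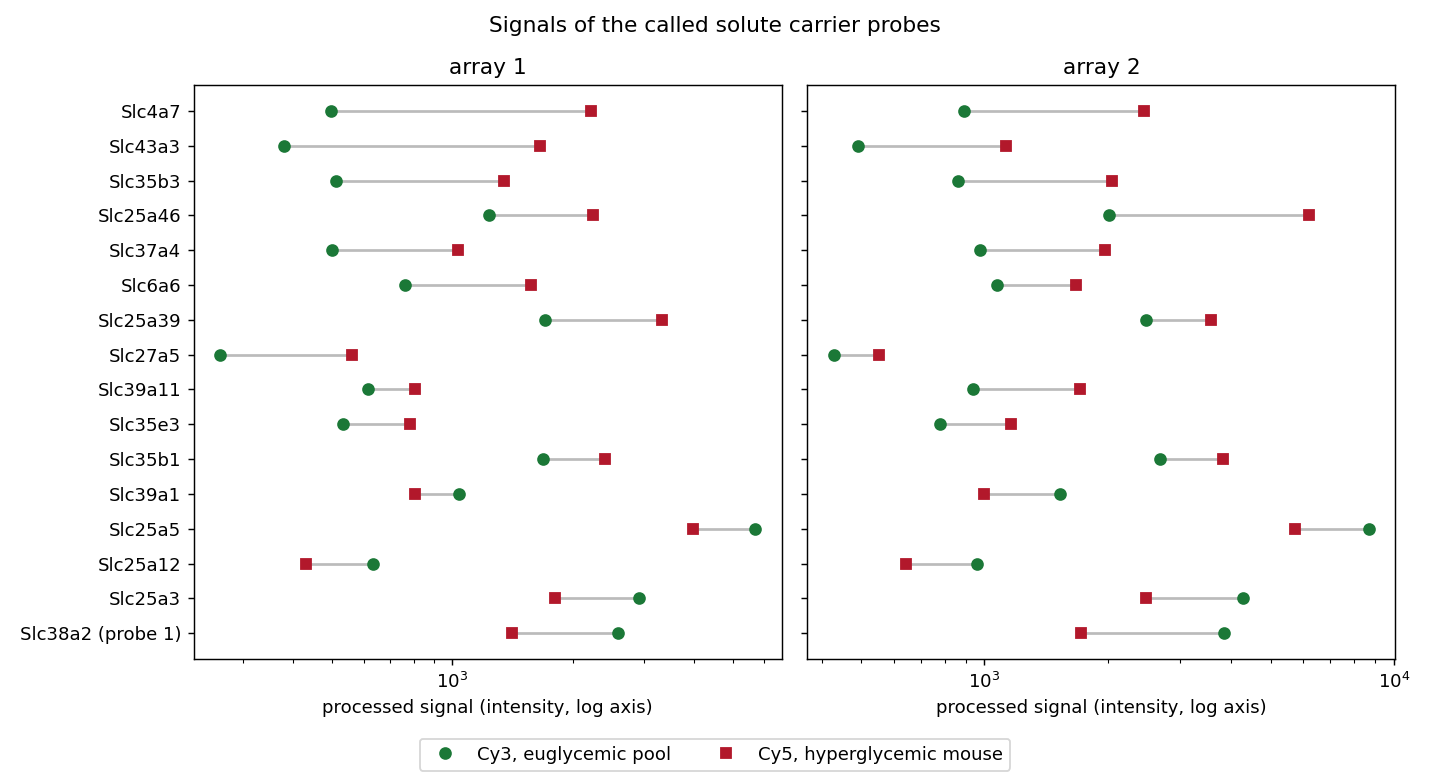
Processed signals (log axis, intensity) of 16 called solute carrier probes on array 1 and array 2; circles are the Cy3 channel with the euglycemic pool and squares the Cy5 channel with 1 hyperglycemic mouse. Squares lie right of circles for 11 probes and left of them for 5 on both arrays. On array 2 Slc4a7 read 891 in the pool against 2453, and Slc38a2 read 3857 against 1723.

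Most of these values rest on a single probe per gene. Outside the table the array held 28 further probes for 18 of the 43 genes, and none of them was well above background in Cy5 on both arrays. The 1 that passed on 1 array was a probe of Slc25a17, with ratios of -1.07 and -0.84, of the same sign as its probe in the table. In the pool 3 were well above background on both arrays, this one, the Slc38a2 probe described above and a probe of Slc38a1 (-2.02 and -2.35). The Slc38a2 and Slc38a1 probes were dim in Cy5 on both arrays, so their negative ratios are no measured level. Further probes of carriers that rose gave no rise in both mice: those of Slc4a7 read -0.50 and -0.99, and 0 and -0.79, and that of Slc6a6 read -0.04 and -1.36. For Slc25a46, 1 further probe read 0 and -1.02, another 0 and 1.60, and the last 0 and 0. That of Slc25a39 read 0.23 and -1.07, and that of Slc35b3 0 and -0.62. The further probes of these 5 genes were dim in Cy5 on both arrays, so their ratios are no measured level in the hyperglycemic mice. Ratios of dim probes were higher: over all gene probes of the table, the dimmest 10% had a median of 0.49 with 48.3% called higher and 2.17% called lower. The carriers among that 10% were Slc27a5, Slc2a3, Slc31a2, Slc39a6 and Slc25a12, of which Slc27a5 rose and Slc25a12 fell. The 6 carriers named above as beyond 2-fold were all brighter than that by the mean of both channels. A raised Cy5 signal itself lifts that mean. By their dimmer channel Slc4a7, Slc43a3, Slc35b3 and Slc37a4 fell outside the brighter 0.75 of gene probes, so a part of dimness in their ratios was not tested.

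**Figure D3:**
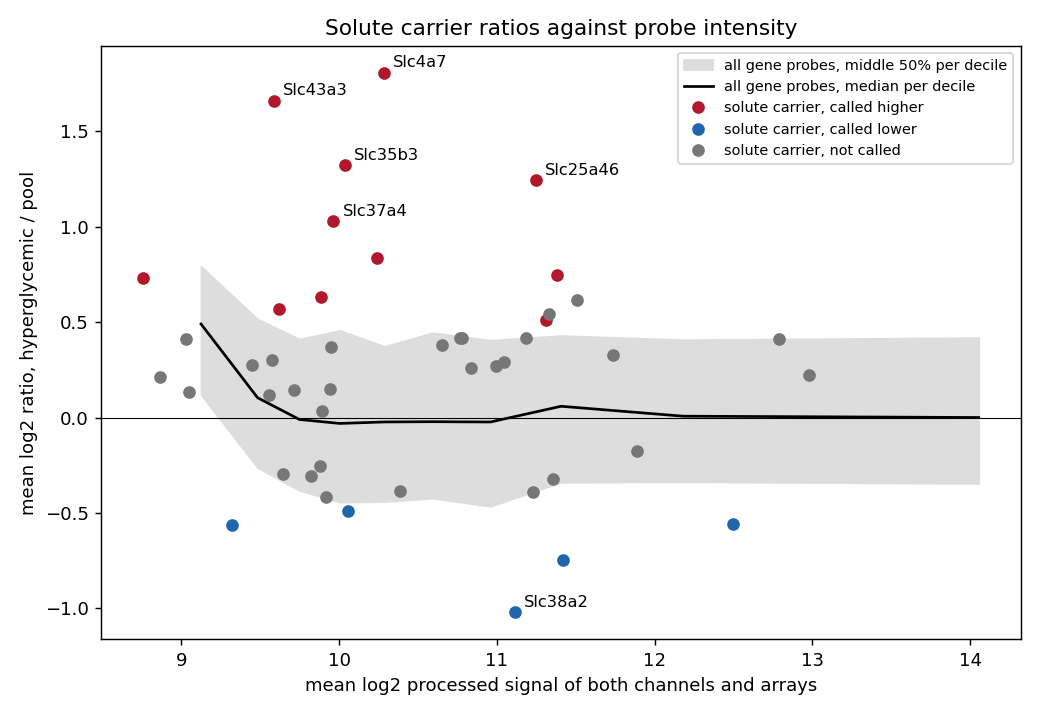
Mean log2 ratio of 46 solute carrier probes (vertical axis) against their mean log2 processed signal over both channels and arrays (horizontal axis), over the median (line) and the middle 50% (grey band) of all gene probes in 10 bins of intensity. The line starts at 0.49 in the dimmest bin and lies near 0 elsewhere, and the 6 labelled probes beyond 2-fold lie outside the grey band.

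The calls depended on the processing. The scanner-signal fits with loess differed from each other only in the background correction. From the deposited ratios they differed also in the set of probes and in the normalization, so the loss of calls cannot be assigned to 1 of these. Ratios were recomputed from the mean spot signals and local backgrounds with normexp (offset 50) and loess over 8814 probes. Then 4.74% of all probes were called higher and 0.488% lower by limma, and no carrier was called. At an unadjusted p under 0.05 in that limma fit were 14 of 47 carriers and 1711 of all 8814 probes. The 17 probes had the same sign in that fit but smaller ratios. The largest were 0.64 for Slc25a46, 0.53 for Slc4a7 and -0.53 for Slc38a2, and several lay near 0, with 0.03 for Slc27a5, 0.06 for Slc35e3, -0.11 for Slc25a12 and 0.17 for Slc35b1. With loess and no background correction 11 of the 17 passed the test.

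**Figure D4:**
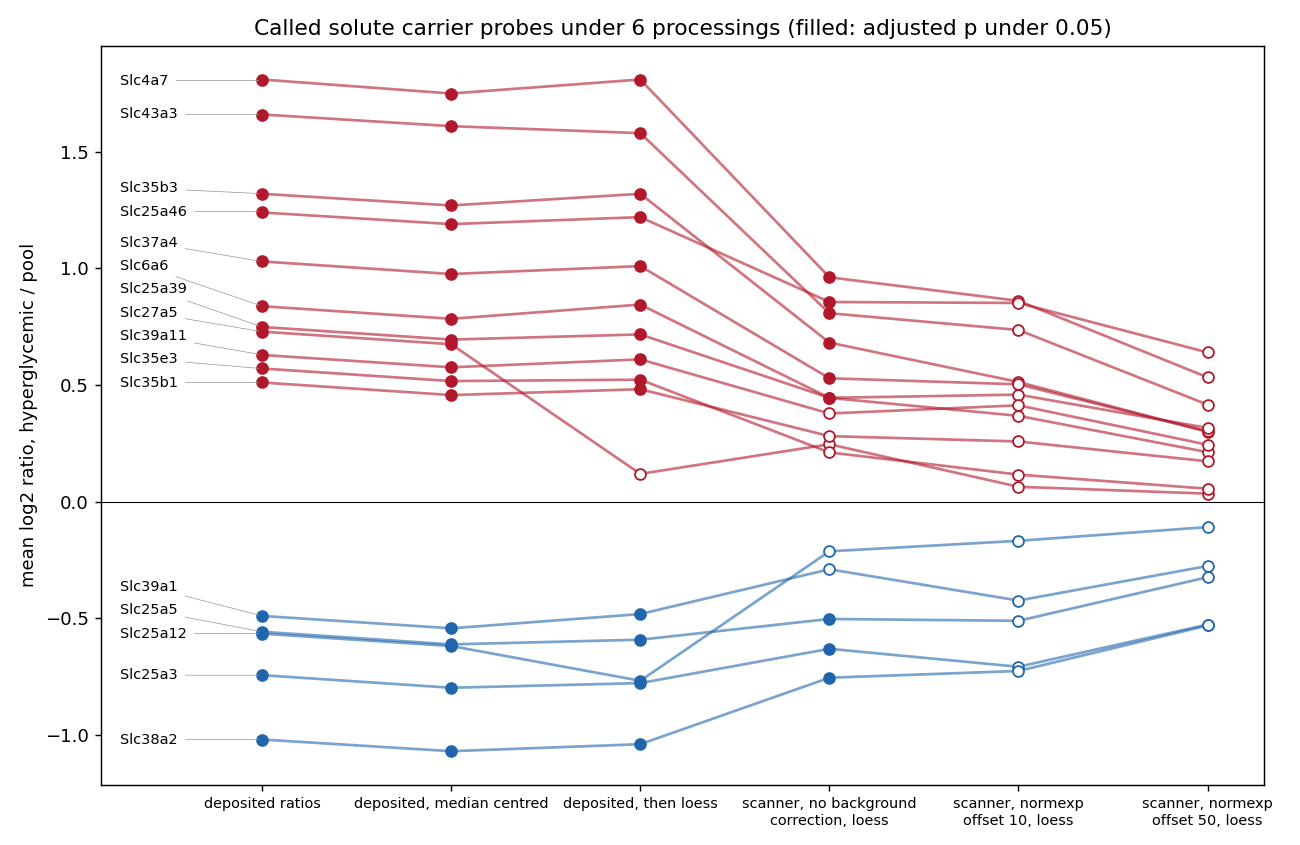
Mean log2 ratio (vertical axis, hyperglycemic mouse over pool) of 16 called solute carrier probes under 6 processings, filled where the adjusted p was under 0.05. Slc4a7 goes from 1.81 in the deposited ratios to 0.53 with normexp offset 50 and Slc38a2 from -1.02 to -0.53, and each line stays on its side of 0 in these 6.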

How the data were processed

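Total RNA (1 µg per sample) was amplified and labelled with Agilent's low RNA input kit, per the labels' protocols. Both arrays were of Agilent design 014868 and lay on the same slide. The scanner files hold intensity values with no normalization for spots and local background, per the file headers, and processed intensity values that were background-subtracted and dye-normalized by Feature Extraction 10.7.3.1. Their log10 ratios of Cy5 over Cy3 come from the processed signals, per the file headers. The deposited table holds log2 ratios that follow these log10 ratios (r = 1.00 on each array) for 5098 probes, of which 26 were controls; how its probes were chosen is not given in the sources used here. Its gene probes had medians of 0.08 and 0.03 on the 2 arrays.

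The main test was limma 3.58.1 in R 4.3.3 on the deposited log2 ratios of all 5072 gene probes, against 0, with 1 residual degree of freedom per probe pooled by eBayes (prior degrees of freedom 6.3) and Benjamini-Hochberg adjustment over these probes. Adjusted p-values and 95% intervals in the text are from it unless another fit is named. The number of arrays limits the precision. Both arrays share 1 pool, so the p-values and intervals hold no error of the pool. The scanner-signal fits took mean signals and local backgrounds, normexp and loess (span 0.3), and kept a probe if on both arrays 1 channel or more stood well above background. Probe positions are of build mm8, per the file headers, and 43 of the 47 probes were matched to current gene symbols by accession and 4 by symbol.

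Values in both mice are given for called carriers beyond a mean log2 ratio of 1, for each sugar and metal carrier, and for the highest and lowest of each other group; the remaining ones are given by mean or count. Of other genes, those called beyond 1 and direct partners of a carrier were to be named, and T cell and red cell markers are given by their range. Hk1, Sesn2, Lamtor2, Lamtor3, Fth1, Hmox1, Uck2, Ldha and Col3a1 were added after their values were seen. So were both values of Slc6a9, Slc25a11 and Slc38a5. The carriers, their groups and the gene lists were chosen with earlier results of these data known. The counts and medians cover all 47 probes; 1 of them is not reported here by itself and is left out of the figures.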

Additional observations from a re-analysis of the deposited data

How the results depend on the processing

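No paired analysis was possible because both mice were compared with 1 pool. All 17 called carriers kept their direction and their call after median centring, with an intensity trend in the variance and with 1 probe per gene, and 16 did after loess on intensity, all but Slc27a5. Further calls were gained: with the trend Slc6a9, Slc38a1 (1 probe), Slc39a7 and Slc25a37 were also higher and Slc35c1 lower (15 higher and 7 lower), median centring added Slc25a17 and Slc35c1 (8 lower), and loess added Slc6a9 and Slc25a37 (12 higher). Of the 0.75 of gene probes with the brighter dim channel, 5 carriers were called higher and 4 lower, of 34 tested. Only 9 of the 17 called carriers were tested there, and all 9 kept their call. That filter reads the dimmer of both channels, so the difference itself bears on which probes stay. The rest of the 17 were left out, among them Slc4a7, Slc43a3, Slc35b3 and Slc37a4. No carrier was called in either direction (0 higher and 0 lower) with scanner signals after normexp with offset 50 or offset 10. The same held in limma on the processed signals of probes bright in at least 1 channel. At an unadjusted p under 0.05 in these limma fits were 14, 13 and 13 of 47 carriers, against 1711, 1637 and 3396 of 8814 probes. The share of all gene probes called was 5.23%, 1.16% and 0% in them, against 43.5% in the deposited ratios, and 23.8% with no background correction. In the processed signals the carriers' ratios were unchanged (median 0.277) and the 17 had adjusted p from 0.0596 to 0.164, since only the set of probes in the fit differed; after normexp the ratios themselves were smaller, and the cause was not tested. The median ratio of the carriers was 0.224 after median centring, 0.199 after loess, 0.0343 and 0.0638 with normexp offsets of 50 and 10, and 0.135 with no background correction. Left to 1 mouse, it ranged from 0.204 to 0.267, and no test was possible.

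Normexp with median centring in place of loess shifted the median of all probes to -2.01, called 97.8% of them, and put 0 carriers higher and 47 lower, with a carrier median of -2.42. The ratios reversed to -1.61 for Slc4a7, -1.31 for Slc43a3, -1.70 for Slc35b3, -2.20 for Slc25a46, -1.82 for Slc37a4, -2.08 for Slc6a6, -2.70 for Slc25a39, -1.21 for Slc27a5, -1.82 for Slc39a11, -1.80 for Slc35e3 and -2.83 for Slc35b1. Of these 11, 7 lay above the median of all probes. The dim Cy5 channel limits every ratio.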
